A study of Homo sapiens with 3 samples.

Results

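The genes described here are 35 genes of sterol and fatty acid synthesis, taken by symbol from a table of 57736 gene rows. All 35 had a row under their listed symbol, and 33 had enough counts to be tested. They cover the mevalonate arm and the later steps of cholesterol synthesis, the sterol sensors and their transcription factors, the liver X receptor (LXR) branch that moves sterols, and the enzymes that make, desaturate and lengthen fatty acids. The cells were TOV21G, a human line from an ovarian clear cell carcinoma that carries a mutated ARID1A gene. All 3 libraries share that background. They were 1 library of cells wild type for HDAC2 (WT) and 2 libraries of cells transduced with a lentivirus encoding a short hairpin RNA against HDAC2, a histone deacetylase, with 1 library for each hairpin (shRNA 1 and shRNA 2). No label states that WT was given a control virus. Depletion of HDAC2 and transduction itself therefore cannot be told apart, and no source used here gives the time after transduction.

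Cholesterol is built from acetyl-CoA through mevalonate, isoprenoid units and squalene, whose ring-closed product lanosterol is then trimmed and rearranged to cholesterol. The sterol regulatory element-binding proteins (SREBPs) are membrane-bound transcription factors that switch on these enzymes, and those of fatty acid synthesis, when membrane sterol is low. SCAP escorts an SREBP from the endoplasmic reticulum to the Golgi for cleavage, and the INSIG proteins hold it back when sterol is plentiful. Tumour cells are known to use both pathways to supply new membrane.

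The hairpins are designed sequences that define the treatment, and their 21-base sense stems were read from the labels. Which stem is shRNA 1 is not stated there.
First stem in the labels: CAGTCTCACCAATTTCAGAAA
Second stem in the labels: GCAAATACTATGCTGTCAATT

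Total counts ranged from 10138479 to 11398791 per library, and levels below are CPM, counts scaled to a common library size with TMM factors. On that scale 3 counts, the limit a count of 0 allows, were 0.262 to 0.301 CPM. HDAC2 stood at 105 CPM in WT and at 33.4 and 51.6 CPM with shRNA 1 and shRNA 2. PAX8, a marker of this tumour's lineage, was at 263 CPM in WT, whereas NAPSA, a clear cell carcinoma marker, had 1 to 4 counts in a library. Of 13 markers of leukocytes, fibroblasts, endothelium, adipocytes and hepatocytes, none exceeded 13 counts in a library. Each change below is the log2 ratio of knockdown to WT, fitted and tested with edgeR's quasi-likelihood test. Its standard error (SE) was derived as the absolute log2 ratio divided by the square root of that test's F statistic. A gene passed where its p, adjusted by Benjamini-Hochberg over all 14524 genes tested, was below 0.05. With 1 WT library, the only residual spread is that between the 2 hairpin libraries, and WT is assumed to vary as they do. The test moderates each gene's spread over all genes, with 1 residual and 18.9 prior degrees of freedom. An SE therefore rests mostly on spread shared over genes, not on that gene's own hairpin values. The labels do not name separate cultures, so the spread may be partly technical.

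Short stretches upstream of the start sites are printed below as examples of motif matches in chosen genes, with motif letters in capitals. Windows of 300 bases (250 before and 50 after the start, RefSeq, GRCh38.p14) were found for 31 of the 35 genes. FASN, SQLE, FDFT1 and ABCG1 had none, so their promoters were not searched for any of the motifs below. The CCAAT box (letters CCAAT, bound by nuclear factor Y, which acts with SREBPs) was searched on both strands and stood in 22 of the 31, or 71.0%, against 43.7% of 9529 tested genes with a window. The GC box (GGGCGG, bound by Sp1) stood in 93.5% of them against 77.4%, and the E-box CACGTG in 19.4% against 12.6%. The strict sterol regulatory element TCACNCCAC stood in the window of SREBF2 alone among the 31, 3.23% against 1.48%. None of these letter strings contains another. Some genes have several windows, and each share counts a gene once if any of its windows holds a match, however many there are. A match describes the letters only, and many known sterol elements depart from this strict form. For each gene a single motif type is printed, so the lines do not list every match. SC5D and EBP also had GC boxes, SC5D an E-box, and FADS2 a CCAAT box just after its start. The lines give the SREBF2 element, then sites of the 4 genes that passed the test (SC5D, EBP, SREBF1 and FADS2). Last are those of STARD4 and ELOVL5, which with SREBF2 differed past 1.5-fold between the hairpins.
SREBF2, sterol element, chr22:41832962-41832990, plus strand: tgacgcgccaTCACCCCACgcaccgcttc
SC5D, CCAAT box on the other strand, chr11:121292705-121292729, plus strand: ccggtcgctgATTGGctggccgctc
EBP, first of 3 CCAAT boxes on the other strand, chrX:48521607-48521631, plus strand: ctcgatgcagATTGGctacggatcc
EBP, second, chrX:48521728-48521752, plus strand: gagagtgtctATTGGttgggagcgg
EBP, last, chrX:48521768-48521792, plus strand: tcgcttcaccATTGGctcgctccgt
SREBF1, first of 3 GC boxes, chr17:17837062-17837087, minus strand: tctcaaggtgGGGCGGggccgtctat
SREBF1, second, chr17:17837040-17837065, minus strand: ctatctgggaGGGCGGgtcctccccg
SREBF1, last, on the other strand, chr17:17837002-17837027, minus strand: tccgcctcgaCCGCCCagcagagctg
FADS2, GC box on the other strand, chr11:61816240-61816265, plus strand: ggttctgtccCCGCCCagagacctga
STARD4, first of 2 CCAAT boxes, chr5:111512682-111512706, minus strand: ttatcggccaCCAATcagccctcca
STARD4, second, chr5:111512651-111512675, minus strand: cccgcgccagCCAATccgaacaagc
ELOVL5, first of 2 CCAAT boxes on the other strand, chr6:53349058-53349082, minus strand: ttgtcccgcgATTGGctcccgggcc
ELOVL5, second, chr6:53349004-53349028, minus strand: tcgggtcccgATTGGctggccgcgc
The SREBF2 stretch lies within an exon of SREBF2-AS1, and those of SC5D, EBP and ELOVL5 within exons of their own genes, in GENCODE 29. The FADS2 stretch touches exons of FADS1 and FADS2 with 10 bases, and the last of SREBF1 an exon of its gene with 1 base. The other stretches of SREBF1 and those of STARD4 touch no annotated exon.

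Knockdown was set against WT to ask how these genes respond to loss of HDAC2 in an ARID1A-mutated line. The changes were small and mixed. SC5D, the desaturase near the end of cholesterol synthesis, rose 1.57-fold, while FADS2, the first desaturase of polyunsaturated fatty acid synthesis, EBP, a sterol isomerase, and SREBF1, the gene of the SREBP that favours fatty acid genes, fell to 0.628, 0.641 and 0.643 of WT. Of the 33 tested genes, 1 rose (3.03%), 3 fell (9.09%) and 29 did not pass, against 3.96% rising and 3.76% falling over all genes tested. The 33 log2 changes ran from −0.67 to 0.65 with a median of −0.26, where the median over all genes was 0.01. In both hairpin libraries 9 genes were above WT and 21 were below it, and 3 lay on either side. Over all genes, 39.9% were above WT in both and 39.3% below it in both, 79.2% together. Past 1.5-fold with both hairpins, 0 of the 33 were higher and 2, SREBF1 and FADS2, were lower, against 6.52% and 5.85% of all genes (12.4% together). At an unadjusted p below 0.05, 4 genes were higher and 11 lower, 45.5% of the 33, against 12.4% and 11.1% of all genes (23.5% together). After removal of a trend that followed GC content, 0 of the 33 passed by edgeR's quasi-likelihood test (10 at an unadjusted p below 0.05), as described further on.

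**Figure D1:**
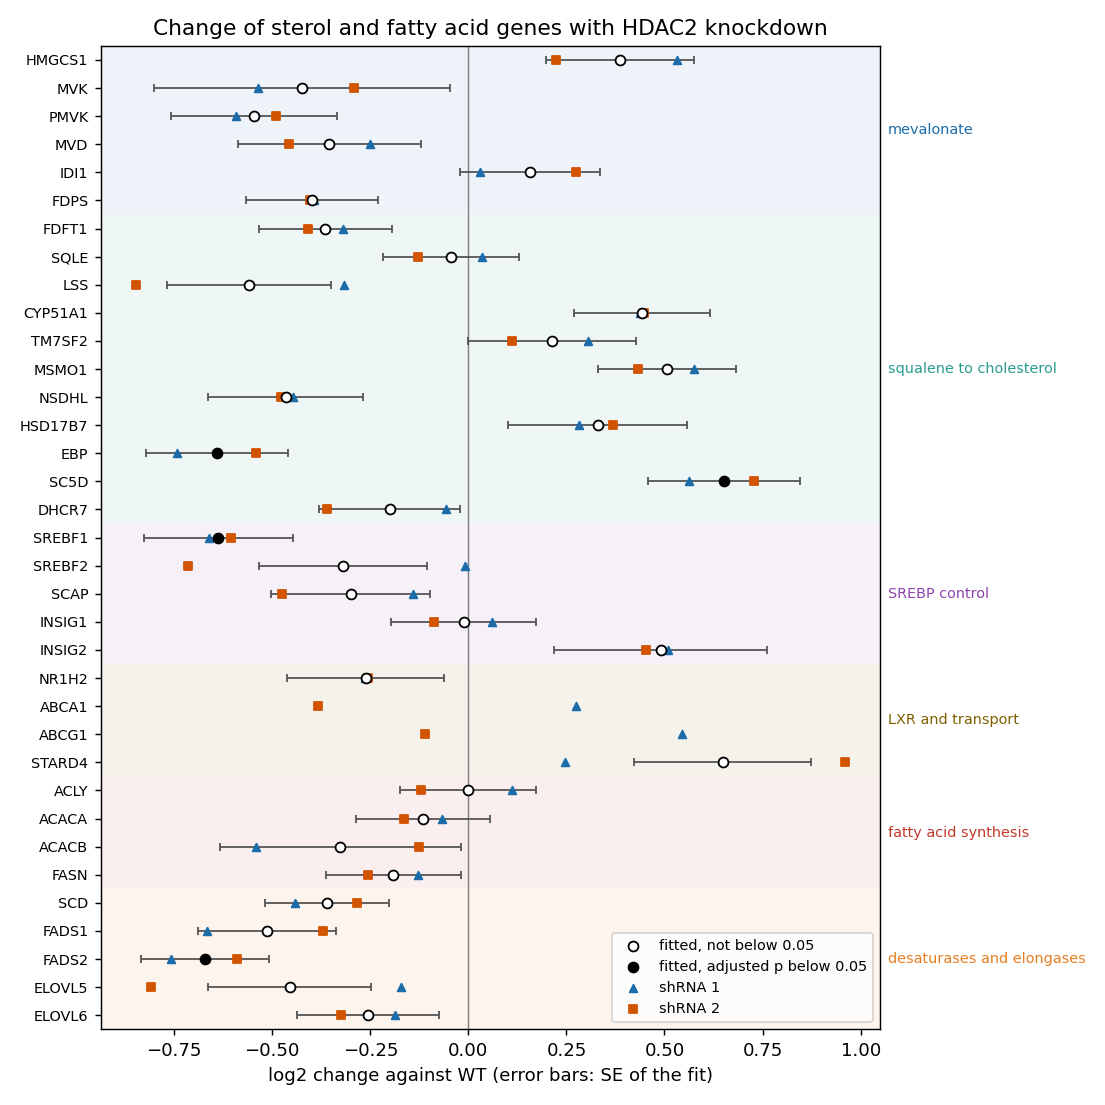
Log2 change against WT for each gene (horizontal axis) by role (rows), with the fitted knockdown value as a circle, its SE as a bar, and the single hairpin libraries as triangles (shRNA 1) and squares (shRNA 2). The 4 filled circles are SC5D on the right and EBP, SREBF1 and FADS2 on the left, and all 5 desaturases and elongases lie left of 0 with both hairpins.

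None of the 6 genes of the mevalonate arm passed, and 2 of them were above WT with both hairpins and 4 below it. HMGCS1, which makes HMG-CoA, had 41.8 CPM in WT and 60.5 and 48.9 CPM with shRNA 1 and shRNA 2, and differed by 0.39 ± 0.19 on the log2 scale (SE; adjusted p = 0.220 by edgeR's quasi-likelihood test). IDI1, the isomerase of isoprenoid units, had 98.8, 101 and 120 CPM in the same order, a log2 change of 0.16 ± 0.18 (SE). Both hairpin libraries were above WT for these 2 genes, by little for IDI1 with shRNA 1. The 2 mevalonate kinases and the decarboxylase were below WT with both hairpins. PMVK, the phosphomevalonate kinase, had 22.1 CPM in WT and 14.6 and 15.7 CPM with the hairpins. It differed by −0.55 ± 0.21 (SE; adjusted p = 0.119, same test). MVK, the mevalonate kinase, rested on 50, 39 and 46 counts and differed by −0.42 ± 0.38 (SE), and MVD, the decarboxylase, by −0.35 ± 0.23 (SE). FDPS, which joins the units to farnesyl diphosphate and is a target of bisphosphonate drugs, had 175 CPM in WT and 133 and 132 CPM in the knockdown libraries. Its log2 change was −0.40 ± 0.17 (SE; adjusted p = 0.154, same test). An antisense RNA, RUSC1-AS1, overlaps 18.6% of the FDPS exons or less, and had 6 to 20 counts in a library.

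Squalene and lanosterol are made by FDFT1, SQLE and LSS. FDFT1, the squalene synthase, was below WT with both hairpins (119 CPM in WT, 95.0 and 89.4 CPM in knockdown), a log2 change of −0.36 ± 0.17 (SE). SQLE, the squalene epoxidase, had 104, 107 and 95.5 CPM and a log2 change of −0.04 ± 0.17 (SE), with the WT value between those of the hairpins. LSS, the lanosterol synthase, had 41.6 CPM in WT, 33.4 CPM with shRNA 1 and 23.1 CPM with shRNA 2. Its log2 change was −0.56 ± 0.21 (SE; adjusted p = 0.109 by edgeR's quasi-likelihood test), and most of it came from shRNA 2.

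The enzymes that turn lanosterol into cholesterol lay on both sides of WT. CYP51A1, the lanosterol demethylase, had 100 CPM in WT and 136 and 137 CPM with the hairpins, and differed by 0.44 ± 0.17 on the log2 scale (SE; adjusted p = 0.125, same test). Its hairpin values lay close together and above WT. In GENCODE 29, 77.5% of its read-length sequences also belong to another gene model, among them the read-through AC000120.2. That model had no row of its own here. TM7SF2, the reductase that follows, had 19.5, 24.1 and 21.05 CPM. The next 3 enzymes, MSMO1, NSDHL and HSD17B7, together remove methyl groups from the sterol ring. MSMO1, the methyl oxidase, had 91.0 CPM in WT and 136 and 123 CPM in knockdown, and differed by 0.51 ± 0.18 on the log2 scale (SE; adjusted p = 0.0848, same test). HSD17B7, the ketoreductase, was also above WT with both hairpins, with a log2 change of 0.33 ± 0.23 (SE) on 117, 164 and 172 counts. Its pseudogene HSD17B7P2 had 6, 21 and 22 counts, 10.8% of the gene's own, and shares sequence with it, so its value is uncertain. NSDHL, the dehydrogenase between them, was below WT with both hairpins, at 31.6 CPM against 23.1 and 22.6 CPM (log2 −0.47 ± 0.20, SE).

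The last steps held the clearest changes of the sterol branch. EBP, the isomerase that shifts a double bond in the sterol ring, had 53.4 CPM in WT, 31.8 CPM with shRNA 1 and 36.6 CPM with shRNA 2. It fell by 0.64 on the log2 scale (SE 0.18, adjusted p = 0.0341 by edgeR's quasi-likelihood test). SC5D, the desaturase that acts after EBP, had 26.3 CPM in WT, 38.9 CPM with shRNA 1 and 43.7 CPM with shRNA 2, and rose by 0.65 ± 0.19 (SE; adjusted p = 0.0443, same test). Both hairpin values of EBP were below WT and both of SC5D above it. DHCR7, the final reductase, which is mutated in Smith-Lemli-Opitz syndrome, had 67.0, 64.5 and 52.2 CPM and did not pass (log2 −0.20 ± 0.18, SE). The SC5D call was lost with DESeq2 size factors (adjusted p = 0.0536), with upper quartile scaling (0.0553) and when genes below a mean count of 50 were left out (0.0564). It was also lost by DESeq2's Wald test (0.254), without a low-count filter (0.468) and with the GC trend removed. The EBP call was lost by the Wald test (0.229), without that filter (0.468) and with the GC trend removed.

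Among the 5 listed genes of SREBP control, SREBF1 fell and the rest did not pass. Of 6 tested genes of SREBP or LXR control outside the list, 1 rose and 1 fell. SREBF1 had 38.3 CPM in WT and 24.2 and 25.1 CPM in the knockdown libraries, which lay close together, and fell by 0.64 on the log2 scale (SE 0.19, adjusted p = 0.0443 by edgeR's quasi-likelihood test). The call was lost by DESeq2's Wald test (0.287), without a low-count filter (0.468) and with the GC trend removed. The table counts the gene as a whole, so its isoforms were not separated. It overlaps RAI1 on the opposite strand over 6.92% of its exons. SREBF2, the gene of the SREBP that favours cholesterol genes, had 79.4 CPM in WT, 78.9 CPM with shRNA 1 and 48.3 CPM with shRNA 2, so that 1 hairpin was at the WT level and the other below it. SCAP, the escort protein, had 32.9, 29.8 and 23.6 CPM. INSIG1, a retention protein whose own gene is a known SREBP target, had 37.7, 39.3 and 35.5 CPM and a log2 change of −0.01 ± 0.19 (SE). INSIG2, its paralog, had 71 counts in WT and 117 and 111 in knockdown, and differed by 0.49 ± 0.27 on the log2 scale (SE; adjusted p = 0.287, same test).

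Of the 4 listed genes of the LXR branch, 2 were tested and neither passed. MYLIP, an LXR-induced gene outside this list, rose and is described further on. NR1H2, the gene of LXR beta, a receptor for oxidised sterols, had 27.4 CPM in WT and 22.8 and 22.9 CPM in knockdown (log2 −0.26 ± 0.20, SE). Its classical targets ABCA1 and ABCG1, which export cholesterol, had 4, 6 and 3 counts and 3, 6 and 3 counts in WT, shRNA 1 and shRNA 2. Both were too low to be tested, and no difference was detectable at this depth. STARD4, which carries cholesterol between membranes inside the cell, had 66.9 CPM in WT, 79.5 CPM with shRNA 1 and 130 CPM with shRNA 2. The log2 change was 0.65 ± 0.23 (SE), as large as that of SC5D, but did not pass (adjusted p = 0.0850 by edgeR's quasi-likelihood test). For STARD4 it was 0.25 with shRNA 1 and 0.96 with shRNA 2. With library size alone as the scale, STARD4 and MSMO1 passed as well (adjusted p = 0.0291 and 0.0489 by edgeR).

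ACLY, ACACA and FASN, which act in making palmitate, were close to WT. ACLY, which supplies cytosolic acetyl-CoA, had 245, 264 and 225 CPM in WT, shRNA 1 and shRNA 2, a log2 change of 0.00 ± 0.17 (SE). ACACA, the acetyl-CoA carboxylase of fatty acid synthesis, had 91.8, 87.6 and 81.9 CPM, and FASN, the fatty acid synthase, had 65.5, 59.9 and 54.8 CPM. The log2 changes of these 2 were −0.12 ± 0.17 (SE) and −0.19 ± 0.17 (SE). ACACB, the mitochondrial form that restrains fatty acid oxidation, had 78, 61 and 81 counts (log2 −0.33 ± 0.31, SE). None of the 4 passed, and 0 had an unadjusted p below 0.05 by edgeR's quasi-likelihood test.

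Of the 5 listed desaturases and elongases, 1 passed. All 5 were below WT with both hairpins, as were 39.3% of all genes. ACACA, FASN and ACACB were also below WT with both hairpins, and ACLY was not. No difference between these groups was tested. Of 7 tested elongation genes outside the list, 3 were above WT with both hairpins and 3 below it. FADS2 had 451 CPM in WT, 266 CPM with shRNA 1 and 300 CPM with shRNA 2, and fell by 0.67 on the log2 scale (SE 0.16, adjusted p = 0.0154 by edgeR's quasi-likelihood test). This call was lost without a low-count filter (0.468) and with the GC trend removed. FADS1, the next desaturase of the same fatty acid chain and a neighbour of FADS2 on chromosome 11, had 95.0, 59.8 and 73.4 CPM and differed by −0.51 ± 0.18 (SE; adjusted p = 0.0782, same test). These genes overlap each other on opposite strands over 5.57% of the FADS1 exons or less. A transcript of FADS2 also overlaps FEN1, a replication gene with 468, 295 and 264 counts, on the same strand. SCD, which makes oleate from stearate, had 626 CPM in WT and 461 and 514 CPM in knockdown (log2 −0.36 ± 0.16, SE; adjusted p = 0.172, same test). ELOVL5, which lengthens polyunsaturated fatty acids, had 198 CPM in WT, 176 CPM with shRNA 1 and 113 CPM with shRNA 2 (log2 −0.46 ± 0.21, SE). ELOVL6, which lengthens palmitate, had 45.6, 40.0 and 36.4 CPM (log2 −0.26 ± 0.18, SE). The median of the 5 was −0.46.

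Summed over the 35 genes, the level was 3138 CPM in WT and 2734 and 2690 CPM with shRNA 1 and shRNA 2, or 87.1% and 85.7% of WT. Of the net drop in that sum, SCD and FADS2 made up 86.5% with shRNA 1 and 58.9% with shRNA 2. Without these 2 genes, the sums were 97.4% and 91.1% of WT. In bulk RNA, fewer cells with a transcript and less of it per cell cannot be told apart.

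Levels were compared between genes per kilobase of the longest transcript. On that scale SCD was highest in WT at 117 CPM per kilobase, followed by FADS2 at 88.8, FDPS at 86.6, ELOVL5 at 64.3 and ACLY at 56.4 CPM per kilobase. WT is 1 library, so no spread is known for this order, and neighbours such as FADS2 and FDPS are not separated. ABCA1, ABCG1, ACACB and MVK were lowest, at 0.0382, 0.0866, 0.836 and 1.22 CPM per kilobase. With the median transcript length in place of the longest, 3 of the 5 highest stayed among the 5 highest, namely FADS2, ELOVL5 and FDPS, and SCD came to be the ninth.

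**Figure D2:**
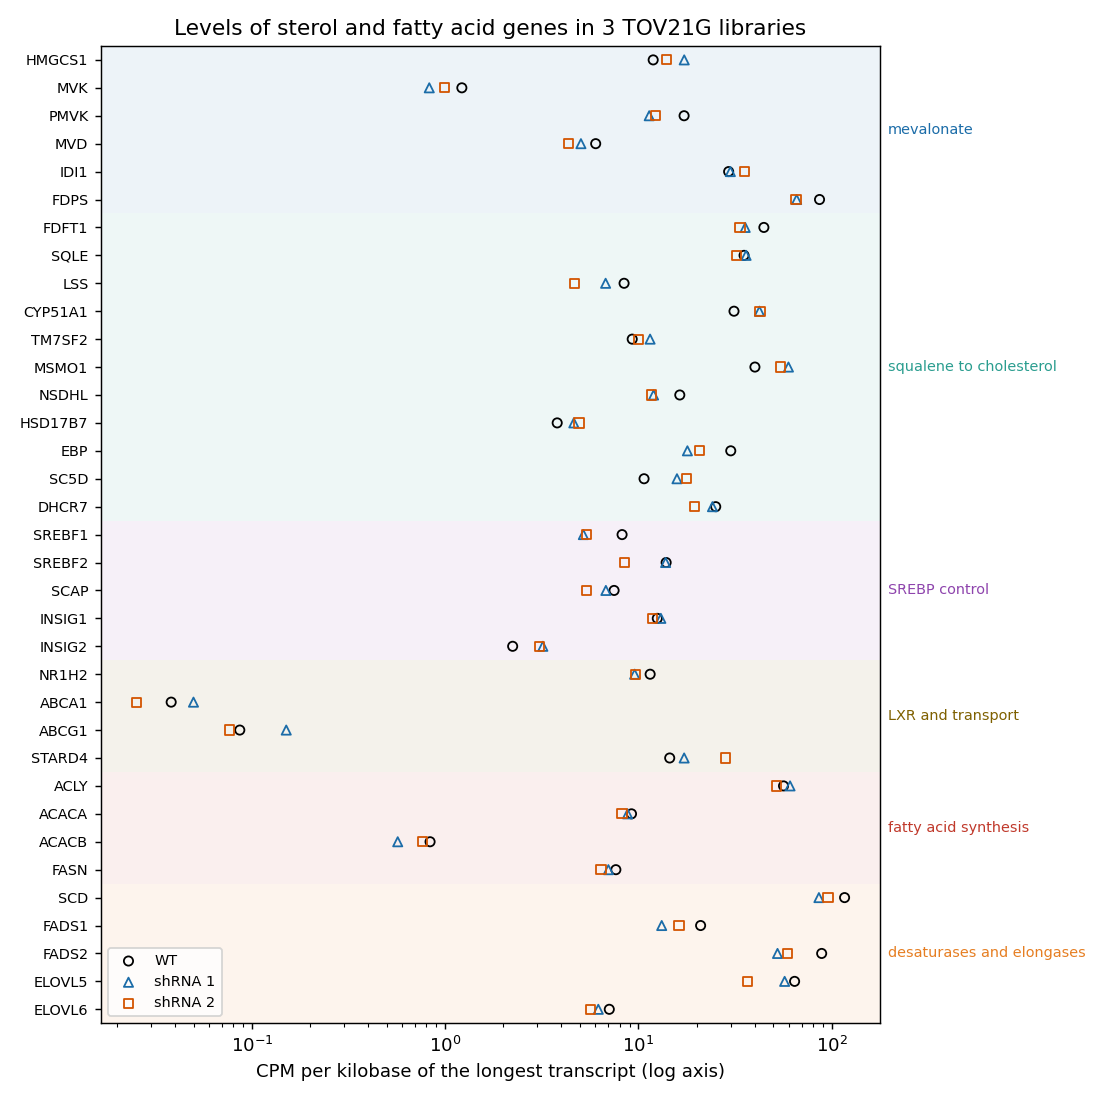
Level of each gene in CPM per kilobase of its longest transcript (log axis) in WT (circles), shRNA 1 (triangles) and shRNA 2 (squares), with genes in rows by role. The WT level spans from 0.0382 for ABCA1 to 117 for SCD, and the distance between libraries is small beside the distance between genes.

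The direction of change ran along the GC content of the transcripts, a property that also moved with the change of all genes. Over 14306 genes with a known GC content, the correlation with the log2 change was −0.31 (Pearson) and −0.48 (Spearman), and over the 33 genes described here it was −0.67 and −0.57. These are descriptions across genes of the same 3 libraries, which share depth and preparation. Of the 10 genes with a GC content below 42%, a limit chosen after the values were seen, 8 were above WT: HMGCS1, IDI1, CYP51A1, MSMO1, HSD17B7, SC5D, INSIG2 and STARD4. The exceptions were ELOVL5 and ELOVL6. Of the other 23 genes, 22 were below WT and TM7SF2, at 64.2% GC, was above it. Over all genes, 79.4% of those below this limit were above WT and 59.3% of those at or over it were below WT. The part of GC content in the single changes was not tested beyond the fit that follows.

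**Figure D3:**
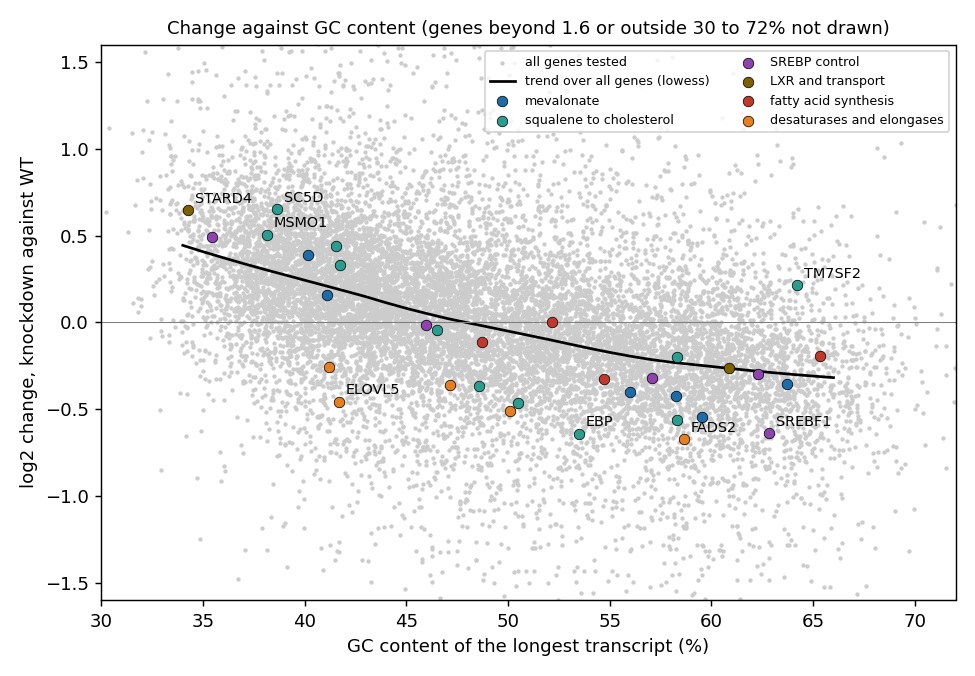
Log2 change of knockdown against WT (vertical axis) by the GC content of the longest transcript in percent (horizontal axis), with all genes tested in grey, the trend over them as a line and the 33 genes coloured by role. SC5D, MSMO1 and STARD4 lie above the trend at low GC, TM7SF2 lies above it at 64.2%, and the desaturases and elongases lie below it.

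When this trend was removed from each library, 4.57% of all genes passed (1.72% higher and 2.85% lower) in place of 7.72%, and all 4 calls among these genes were lost. The log2 change became 0.36 ± 0.17 (SE) for SC5D, −0.50 ± 0.17 (SE) for EBP, −0.35 ± 0.18 (SE) for SREBF1 and −0.43 ± 0.16 (SE) for FADS2. Their adjusted p-values by edgeR's quasi-likelihood test then were 0.281, 0.113, 0.319 and 0.154. Of the 33 changes, 28 kept their sign and 26 became smaller, and the median was −0.08. The desaturases and elongases kept their median, at −0.46. ELOVL5 then differed by −0.64, ELOVL6 and FADS1 each by −0.46 and SCD by −0.38, and all 5 had an unadjusted p below 0.05. TM7SF2 differed more than before, by 0.51 against 0.21. Unadjusted, 10 of the 33 genes (30.3%) had a p below 0.05 in this fit against 17.6% of all genes (8.2% higher and 9.45% lower), and the lowest adjusted p among them was 0.110, for ELOVL5.

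The hairpin libraries were also set against each other, by value only, since each is 1 library. Past 1.5-fold, 3 of the 33 genes differed (9.09%), against 10.8% of all genes (5.05% higher and 5.73% lower with shRNA 2). STARD4 was 1.64-fold higher with shRNA 2 than with shRNA 1. SREBF2 and ELOVL5 were 1.63-fold and 1.56-fold higher with shRNA 1. LSS followed at 1.45-fold higher with shRNA 1. The median absolute log2 difference was 0.17 over the 33 genes and 0.19 over all genes tested. For the 4 genes that passed against WT, the log2 differences between hairpins were 0.17 for SC5D, 0.20 for EBP, 0.06 for SREBF1 and 0.17 for FADS2. The test against WT itself uses the difference between hairpins as its residual spread, moderated over all genes.

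**Figure D4:**
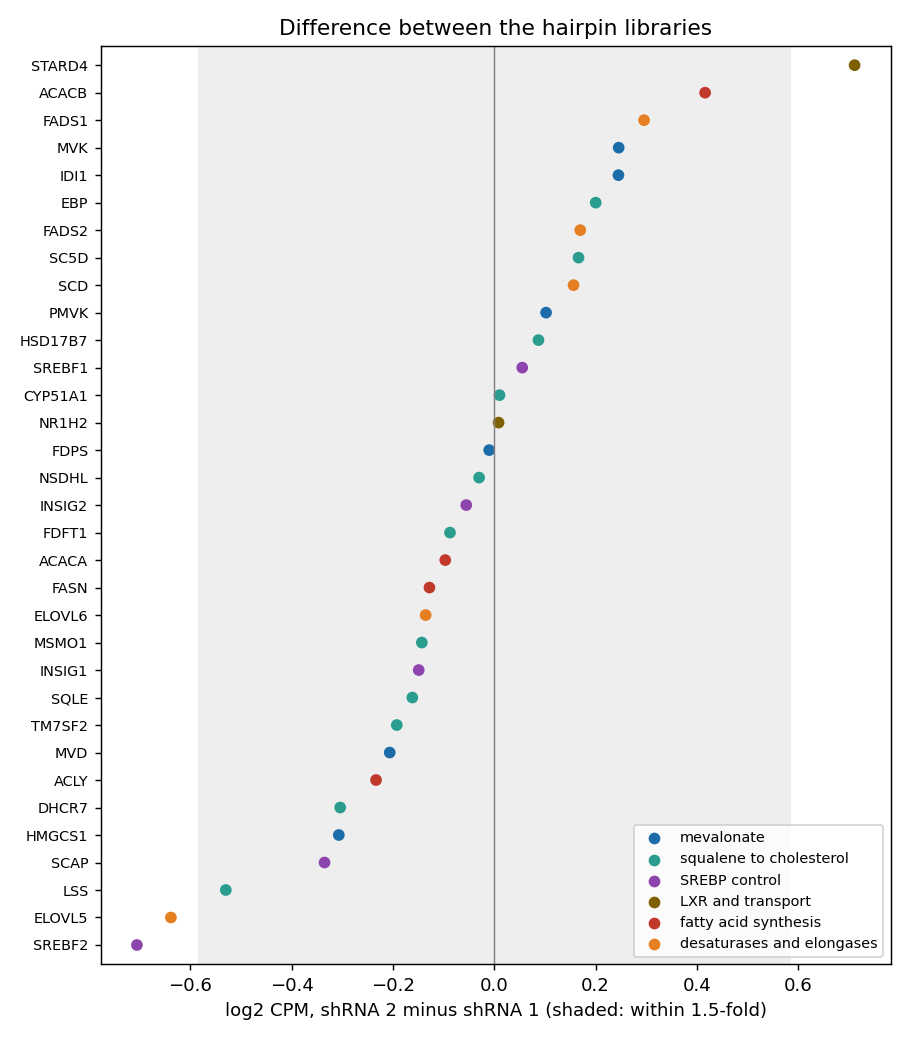
Difference in log2 CPM between shRNA 2 and shRNA 1 for each tested gene (horizontal axis), ordered by value and coloured by role, with the range within 1.5-fold shaded. STARD4 lies beyond the shaded range on the right and ELOVL5 and SREBF2 on the left.

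Other genes of these pathways were taken from a separate list of 34, of which 30 were tested. Of these 3 rose, 6 fell and 21 did not pass, where 7.72% of all genes passed. HSD17B12, the reductase of the fatty acid elongation cycle, had 94.9 CPM in WT and 173 and 194 CPM with shRNA 1 and shRNA 2, and rose by 0.95 ± 0.18 (SE; adjusted p = 0.00306 by edgeR's quasi-likelihood test). TECR, which completes the same cycle, fell from 110 CPM to 53.4 and 69.4 CPM, by 0.84 on the log2 scale (SE 0.18; adjusted p = 0.00615, same test). MYLIP, an LXR-induced ubiquitin ligase that degrades lipoprotein receptors, rose from 41.4 CPM to 74.1 and 75.4 CPM (log2 0.85 ± 0.18, SE; adjusted p = 0.00562, same test). ELOVL7, an elongase of saturated fatty acids, rose by 0.65 ± 0.18 (SE). FABP5, a fatty acid carrier with 16.8% of its read-length sequences in pseudogenes, fell from 69.4 CPM to 35.7 and 45.9 CPM. LBR, a sterol reductase of the inner nuclear membrane, fell from 126 CPM to 81.0 and 78.4 CPM, and CYP27A1, a sterol hydroxylase, from 37.9 CPM to 24.7 and 10.6 CPM. With the GC trend removed, HSD17B12, MYLIP, TECR, LBR and FABP5 passed again, and 4 calls, those of ELOVL7 and CYP27A1 among them, were lost.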

How the data were processed

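Total RNA of 3 libraries of TOV21G cells was sequenced as 75-base reads, per the labels' protocols. The authors deposited whole-number estimated counts for each Ensembl gene, unscaled for depth. The submitters' processing notes name RSEM 1.2.3, edgeR and hg19 without saying which step each did, and no source used here gives the strand setting. RSEM divides reads that fit several genes by a model, so genes with near-identical copies are uncertain.

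Samples were grouped by title into WT (n = 1) and knockdown (n = 2). The deposited counts were tested with edgeR 4.0.16 (R 4.3.3; quasi-likelihood, TMM, filterByExpr, Benjamini-Hochberg), with 1 residual and 18.9 prior degrees of freedom. Single-library log2 values used a prior count of 2. GC content and length came from the longest GENCODE 29 transcript (known for 98.5% of tested genes). The GC trend was a lowess fit per library (span 0.3), entered as an offset. The script was tested on simulated data. Alternatives were other scalings, filters, tests (DESeq2 1.42.0), summed pseudogenes and single hairpins. All 35 genes were to be named, and of the other list up to 4 per direction. Genes and lists were chosen with earlier results of these data known. Counting limits cover counting error only.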

Additional observations from a re-analysis of the deposited data

How the results depend on the processing

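Without a low-count filter, 0 genes passed edgeR's quasi-likelihood test, of these genes (9 at an unadjusted p below 0.05) or of all (2486 unadjusted), so 0 were higher, 0 were lower and 0 of the other pathway genes passed. With the GC trend removed, 0 of these genes were higher and 0 lower (10 unadjusted), 5 of the other pathway genes passed, and so did 664 of all genes, 250 higher and 414 lower, where 575 and 546 passed without it. By DESeq2's Wald test 0 were higher and 1 lower (7 unadjusted), 3 other pathway genes and 306 of all genes passed, and 6 of these genes had no adjusted p. The count of higher genes was also 0 with DESeq2 size factors, upper quartile scaling and a mean count of at least 50 (15 unadjusted each, edgeR), and 3 with library size alone. Of the 5 highest levels, 3 were the same with median transcript length. Signs turned with the GC trend removed for IDI1 (−0.055), DHCR7 (0.029), NR1H2 (0.0030), ACLY (0.10) and FASN (0.12), with library size alone for INSIG1 (0.022) and ACLY (0.034), and with no filter for ACLY (0.00037), none of which passed in any fit. The cause was not tested. Taking a single hairpin, the 4 called genes kept their direction, from −0.76 to −0.54 for the 3 that fell and from 0.56 to 0.73 for SC5D. The calls were made on these same libraries, so this direction is no separate support for them. No paired analysis was possible because WT is 1 library. The lone WT library and an SE near 0.19 limit what can be called at these changes.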

Other observations

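Paralogs and paired genes differed in level, in CPM per kilobase of the longest transcript. INSIG1 was 5.60, 4.08 and 3.82 times as high as INSIG2 in WT, shRNA 1 and shRNA 2. FADS2 was 4.23, 3.97 and 3.64 times as high as FADS1, and ACACA 11.02, 15.5 and 10.7 times as high as ACACB, whose counts were low. SREBF2 was 1.69 times as high as SREBF1 in WT, 2.66 times with shRNA 1 and 1.57 times with shRNA 2. These ratios have no test and depend on the transcript length chosen for each gene.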
